A study of Homo sapiens with 16 samples.

Results

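The Src family kinases FGR, LYN, FYN, YES1, SRC, LCK and BLK were followed in OCI-AML3, an established human acute myeloid leukaemia (AML) cell line, as 7 genes out of 62700 in the expression table. They were chosen by family name, with FGR leading the set because its rise under retinoids in these libraries was already known. All 7 were found, and 5 of them (FGR, LYN, FYN, YES1 and SRC) averaged 10 or more normalized counts across all 16 libraries and were tested among 14643 genes. The libraries fall into 5 groups from cells of 1 line: Untreated (n = 4), ATRA (n = 3), AM80 (n = 3), ATRA-LSDi-MB3 (n = 3) and AM80-LSDi-MB3 (n = 3). ATRA (all-trans retinoic acid) activates all retinoic acid receptors, and AM80 (tamibarotene) is a synthetic retinoid selective for RARA, each used at 0.1 µM. The combination groups also received GSK-LSD1 (0.1 µM), which inhibits the histone demethylase LSD1, and MB3 (100 µM), which inhibits the acetyltransferase GCN5, and exposure lasted 3 h. No library had the inhibitors without a retinoid, so what the inhibitors do alone was not measured here.

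Src family kinases are membrane-anchored tyrosine kinases that start signalling from receptors without kinase activity of their own, such as Fc receptors, integrins and immunoreceptors. A lipid tail at the N terminus fixes them to the membrane, SH3 and SH2 domains hold the kinase closed, and CSK switches it off by phosphorylating a tyrosine near the C terminus. FGR is best known from granulocytes and monocytes, LCK and BLK are lymphocyte kinases, and SRC, FYN and YES1 are found in most tissues. An mRNA level does not show whether the kinase is active.

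Sequencing gave 11963898 to 33789718 reads assigned to genes per library. Replicate pairs that held Untreated replicate 4 or AM80 replicate 2 differed from each other more (chi-square per degree of freedom 16.01 to 25.9 over 5 pairs) than the other 13 pairs (2.75 to 6.23), so values without these libraries are given where they matter. The labels do not say that replicates came from separate cultures, and p-values therefore measure the spread between these samples. All 13 myeloid markers checked averaged 10 or more normalized counts, whereas none of 9 T cell markers did and, of 7 B cell markers, only EBF1 did. Of 7 erythroid and megakaryocyte markers 2 did. Among the myeloid markers MPO and CD68 had medians of 37.1 and 67.2 over the 16 libraries, below the 202 of EBF1. The B cell markers summed to 103 to 117 normalized counts in Untreated libraries. With a retinoid alone their sum was 205 to 266, and in the combinations 218 to 256. EBF1 rose from a mean of 97.8 in Untreated cells to 217 with ATRA and 197 with AM80, and MS4A1 and VPREB1 were at 0. The myeloid markers summed to 31975 to 39158, 28309 to 34810 and 28736 to 32195 in the same order. The part of these marker levels in the results was not tested. Because this is bulk RNA, fewer cells of one kind and less RNA per cell cannot be told apart.

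FGR (ENSG00000000938.13, chr1:27612064-27635277, minus strand in GENCODE release 29 on GRCh38) is a myeloid member of the family. The bases upstream of both start sites that RefSeq lists for it (GRCh38.p14) are shown because FGR carried the largest difference of the set. The first window ends 92 bases before its RefSeq start, where the annotated exons begin, and capitals mark GAGGAA, the core letters bound by the myeloid factor PU.1. The second ends at its start inside the gene, and capitals mark AGTTCA, a core hexamer of nuclear receptor sites.
FGR distal start, chr1:27635278-27635435, minus strand: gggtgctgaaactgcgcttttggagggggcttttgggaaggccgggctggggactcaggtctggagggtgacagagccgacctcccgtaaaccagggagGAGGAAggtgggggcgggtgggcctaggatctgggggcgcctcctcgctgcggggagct
FGR internal start, chr1:27626598-27626847, minus strand: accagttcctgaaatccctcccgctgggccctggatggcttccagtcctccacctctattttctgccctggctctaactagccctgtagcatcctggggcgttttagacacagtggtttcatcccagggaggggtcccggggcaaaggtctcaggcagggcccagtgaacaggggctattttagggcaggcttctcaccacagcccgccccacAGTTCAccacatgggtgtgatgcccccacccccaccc
Both strands were searched for GAGGAA and for nuclear receptor hexamers, namely the consensus AGGTCA together with its variants GGGTCA as well as AGTTCA and finally GGTTCA, and the matches shown do not overlap. GAGGAA also occurred on the opposite strand at the distal start, its first base at -9 from the RefSeq start, in the part not shown. GAGGAA was found in 27.9% and AGTTCA in 10.4% of 35116 promoter windows of the same table, which are longer than the stretches shown. A direct repeat of such hexamers with a spacer of 1, 2 or 5 bases, the arrangement of retinoic acid response elements, occurred in 0.259% of the promoters and in 0 of the windows listed for members (FGR, FYN, YES1 and LCK, 4 of the 7).

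FGR had the lowest mean of the 5 expressed members per kb of exon before treatment, overlapping FYN, and stood second with either retinoid. It gave 83.7, 97.9, 72.2 and 90.8 normalized counts in the Untreated libraries, 2777, 2975 and 2769 with ATRA and 2819, 2550.1 and 2976 with AM80. The lowest retinoid-treated library was thus far above the highest Untreated one, with no overlap. The means were 86.2 ± 10.95 (SD, n = 4), 2840.1 ± 117 (n = 3) and 2782 ± 215 (n = 3), ratios of 32.96 and 32.3. On the log2(normalized count + 1) scale the differences were 5.03 (95% confidence interval 4.84 to 5.22) and 5.003 (4.81 to 5.19), the 13th and 12th highest of 14643 genes. FGR entered the set for this rise, so the comparison with Untreated is a description without a test. With the inhibitors added, FGR stood at 1428, 1339 and 1658 in the ATRA-LSDi-MB3 libraries and 1628, 1560.02 and 1584 in the AM80-LSDi-MB3 libraries. These values lay between the Untreated and the retinoid groups and overlapped neither. Group means were 1475 ± 165 and 1590.5 ± 34.5 (n = 3 each), still 17.1 and 18.5 times the Untreated mean.

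LYN (ENSG00000254087.8, chr8:55879813-56014168, plus strand), which acts both in activating and in inhibitory receptor pathways of myeloid cells, was the most abundant member in every group. It gave 4326, 4477, 4403 and 4379.6 normalized counts in Untreated cells, 7432, 6813 and 7454 with ATRA and 7802, 8081 and 7527 with AM80. The combinations gave 9624, 10178 and 9959 with ATRA-LSDi-MB3 and 10163, 9948 and 10049.7 with AM80-LSDi-MB3. The 3 levels, untreated, retinoid and combination, did not overlap. With ATRA, LYN rose by 0.72 in log2 units (SE 0.054, adjusted p = 1.29e-09 in limma) and by 0.83 under AM80 (SE 0.054, adjusted p = 1.26e-10). Against Untreated the combinations stood 1.17 and 1.19 higher on that scale (adjusted p = 2.47e-13 and 1.68e-13).

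SRC (ENSG00000197122.13, chr20:37344685-37406050, plus strand), the founding member of the family and one found in many tissues, was 1.39-fold higher with ATRA and 1.35-fold higher with AM80. Its normalized counts were 1028, 1078, 1081 and 1242 in Untreated cells, 1513, 1548 and 1546 with ATRA and 1597, 1271 and 1604 with AM80. All retinoid-treated libraries lay above all Untreated ones, although AM80 replicate 2 and Untreated replicate 4 came within a narrow gap of each other. Both differences passed the test (log2 0.48, adjusted p = 1.52e-04, and 0.42, adjusted p = 4.54e-04 in limma) but stayed under the limit of 1.5-fold that a call required here. Without AM80 replicate 2 the second difference was 0.53, also under that limit. Combination libraries gave 1301, 1222 and 1232 with ATRA-LSDi-MB3, where the range overlapped Untreated, and 1509.5, 1520.2 and 1342 with AM80-LSDi-MB3, where it did not.

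YES1 and FYN, the other broadly expressed members, showed no call with either retinoid. YES1 (ENSG00000176105.14, chr18:721588-812546, minus strand) gave 821, 719, 696 and 667 normalized counts in Untreated cells, 731, 648 and 778 with ATRA and 757, 876 and 719 with AM80. These ranges overlapped, and the log2 differences were -0.014 (-0.19 to 0.16) with ATRA and 0.11 (-0.063 to 0.28) with AM80. In the combinations YES1 gave 1287, 1337 and 1266 with ATRA-LSDi-MB3 and 1317, 1318 and 1250.1 with AM80-LSDi-MB3, all above every other library. It rose by 0.84 and 0.84 on the log2 scale over Untreated (adjusted p = 3.60e-08 and 3.65e-08 in limma). The exons of YES1 share 154 bases with the antisense gene AP001020.3, whose mean was 4.04 normalized counts, and whether counting used strand is not given in the sources used here.

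FYN (ENSG00000010810.18, chr6:111660332-111873452, minus strand) gave 226, 200.4, 181 and 235 normalized counts in Untreated cells, 167, 154 and 159 with ATRA and 186, 156 and 179 with AM80. The ATRA libraries lay below all Untreated ones, whereas the AM80 libraries overlapped them. The log2 difference was -0.39 with ATRA (adjusted p = 0.0177 in limma, under the fold limit) and -0.27 with AM80 (adjusted p = 0.0842). The first did not pass adjusted p = 0.05 without Untreated replicate 1 (0.0520), without ATRA replicate 2 (0.0708) or without ATRA replicate 3 (0.0525). Combination libraries gave 186, 226 and 260.3 with ATRA-LSDi-MB3 and 247, 259.8 and 228 with AM80-LSDi-MB3, which overlapped Untreated in both cases.

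The lymphocyte members LCK (ENSG00000182866.18, chr1:32251239-32286165, plus strand) and BLK (ENSG00000136573.16, chr8:11486894-11564604, plus strand) were not detectable at this depth. LCK had 0 reads in all 16 libraries. BLK had 1 read each in Untreated replicates 3 and 4 and 0 reads elsewhere. A count of 0 allows up to 3 reads, which is 1.55 to 4.18 normalized counts depending on the library, and covers counting error only. In the same libraries the T cell markers summed to 1.37 to 8.72 normalized counts. Of these 9, 7 had no more than 3 reads in any library, as had 4 of 7 B cell markers. The other B cell markers reached up to 394 reads (EBF1), 27 (PAX5) and 10 (CD79A).

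**Figure D1:**
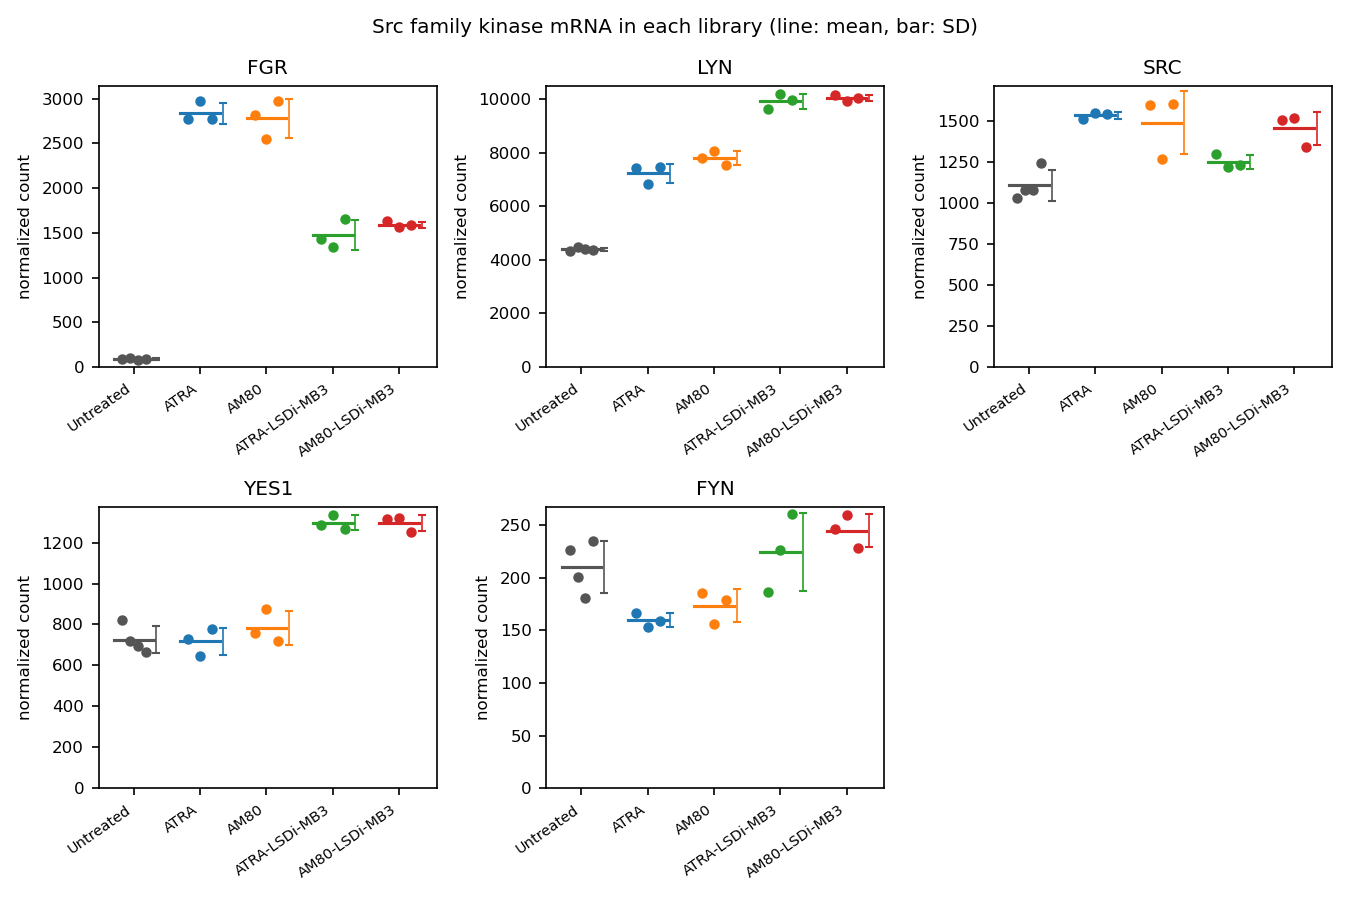
Normalized counts (linear axes from 0) of the 5 expressed members in each of the 16 libraries, by group, with the group mean as a line and the SD as a bar. FGR went from at most 97.9 in Untreated cells to at least 2550.1 with a retinoid and to between 1339 and 1658 in the combinations, LYN stepped up at both stages, and YES1 was high in the 6 combination libraries.

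Set against the background, 2 of the 5 expressed members (LYN by the test, FGR past the same limits as a description) were higher with ATRA, where 9.45% of 14643 genes were called and 6.52% called higher. The same 2 were higher with AM80, at 10.2% called and 6.41% higher. FGR, LYN and YES1 were higher in both combinations, where 14.2% of genes (ATRA-LSDi-MB3) and 12.9% (AM80-LSDi-MB3) were called higher and 29.1% and 26.0% called in all. Of the called genes 63.02% were higher with AM80, 48.95% in ATRA-LSDi-MB3 and 49.7% in AM80-LSDi-MB3, and scaled to total reads these shares were 52.8%, 31.9% and 29.2%, with the median of all genes at −0.15 and −0.19 in the combinations. FGR was included for its rise, so nothing is read from these counts, and the 4 comparisons share their Untreated libraries. By adjusted p alone, without the fold limit, 24.6% of genes passed with ATRA, 28.8% with AM80, 60.2% with ATRA-LSDi-MB3 and 54.7% with AM80-LSDi-MB3, which is the background for the smaller SRC and FYN differences. The median log2 difference of the 5 members, FGR included, was 0.48 with ATRA and 0.42 with AM80, beside -0.020 and -0.0051 over all genes. The members other than FGR ran from -0.39 (FYN) to 0.72 (LYN) with ATRA. With AM80 they ran from -0.27 to 0.83, and nothing is read from the medians either.

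With the LSD1 and GCN5 inhibitors added, FGR was lower and YES1 rose, beside either retinoid. The FGR difference was -0.95 on the log2 scale from ATRA to ATRA-LSDi-MB3 (SE 0.098, 95% confidence interval -1.15 to -0.75) and -0.80 from AM80 to AM80-LSDi-MB3 (SE 0.098, -1.01 to -0.60). The ATRA and AM80 libraries are those whose high FGR values brought it into the set, so these differences too are a description without a test. YES1 rose by 0.85 (SE 0.089, adjusted p = 2.27e-07 in limma) and by 0.73 (SE 0.089, adjusted p = 1.86e-06). In each comparison 2 of the 5 expressed members were past the limits of a call (YES1 by the test, FGR as a description), where 19.5% of genes were called for ATRA, 8.15% rising and 11.4% falling, and 15.7% for AM80, 6.81% rising and 8.9% falling. FGR was included for its values, so nothing is read from the count of 2. Leaving out each library in turn kept YES1 past these limits, at 0.78 to 0.91 beside ATRA and 0.67 to 0.81 beside AM80. FGR, as a description, then ranged from -1.04 to -0.88 and from -0.86 to -0.75. Of the 13 myeloid markers, 2 fell with the inhibitors beside each retinoid, and 1 rose beside ATRA and 0 beside AM80. The shares of all genes are those just given. The 2 that fell were CSF1R, a receptor of the monocyte lineage (by 0.82 and 0.92 on the log2 scale), and CEBPA, a myeloid transcription factor (by 0.81 and 0.67). LYZ, the gene for lysozyme, fell with ATRA by 0.67 and rose by 0.70 when the inhibitors were added to it. Against Untreated 5 of the 13 were called lower in ATRA-LSDi-MB3 and 1 in AM80-LSDi-MB3, and 0 were called higher in either. Of all genes 29.1% and 26% were called there, with 14.2% and 12.9% of all genes called higher. The part of these markers in the differences of the members was not tested.

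LYN, FYN and SRC also differed, within 1.5-fold, where 49.3% of genes passed by adjusted p alone beside ATRA and 39.5% beside AM80. LYN was 1.37-fold higher with the inhibitors beside ATRA (log2 0.46, adjusted p = 2.71e-06 in limma) and 1.29-fold higher beside AM80 (log2 0.37, adjusted p = 4.24e-05). FYN was 1.40-fold and 1.41-fold higher (adjusted p = 0.00369 and 0.00331), and both of its differences passed the fold limit under quantile normalization, at log2 0.60. Without ATRA-LSDi-MB3 replicate 1, the lowest FYN library of its group, the difference beside ATRA also became 0.60. SRC was lower beside ATRA (log2 -0.30, adjusted p = 0.00871), whereas beside AM80 its difference was -0.027 (-0.21 to 0.16). The test of that contrast, the interaction, gave 0.27 (0.010 to 0.53) with an unadjusted p = 0.0424 and an adjusted p = 0.316 in limma, and 0.16 without AM80 replicate 2. A change in scaling bears on all of these values: scaled to total reads in place of the deposited size factors, the median of all genes moved to −0.16 beside ATRA and −0.13 beside AM80, and the share of called genes that were higher from 41.7% to 20.9% and from 43.3% to 26.5%. On that scale YES1 differed by 0.71 and 0.60, still past the limits of a call, and FGR, as a description, by −1.10 and −0.93. LYN differed by 0.31 and 0.24, FYN by 0.33 and 0.37, and SRC by -0.44 and -0.15, the last at an adjusted p = 0.15 in limma and the others still past adjusted p = 0.05.

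**Figure D2:**
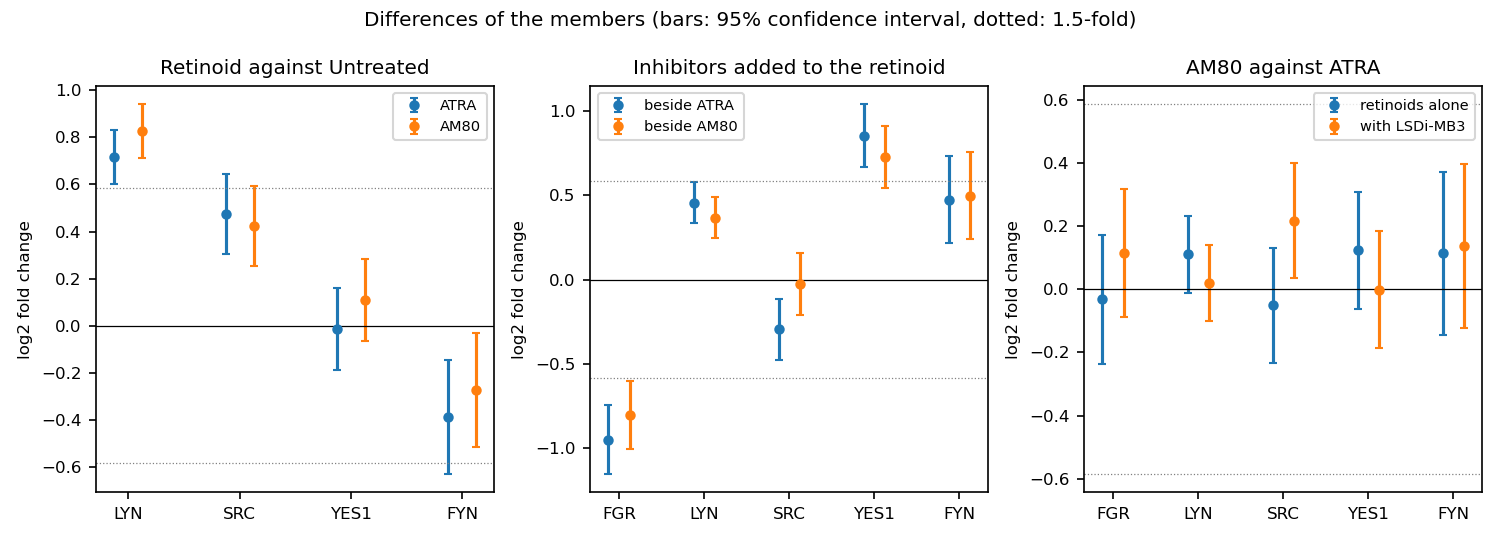
Log2 differences with 95% confidence intervals (limma, n = 3 or 4 libraries per group) for each retinoid against Untreated (left, without FGR, which was not tested there), for the inhibitors added to each retinoid (middle, where FGR is a description) and for AM80 against ATRA (right), with dotted lines at 1.5-fold. LYN is above the line with both retinoids, FGR below and YES1 above it with both inhibitor additions, and all differences between AM80 and ATRA lie within 1.5-fold.

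AM80 and ATRA, related retinoids of which the synthetic one is selective for RARA, were compared at the same dose and time, in 2 pairs of groups: alone, and each with the inhibitors. None of the 5 members was called in either pair, against a background of 0.0478% of genes called for the retinoids alone (7 genes) and 0.0% with the inhibitors. At an unadjusted p under 0.05 there were 2042 and 2656 genes, and edgeR and DESeq2 called 16 and 17 genes for the first pair and 0 and 16 for the second. For FGR the difference, AM80 minus ATRA, was -0.032 (-0.24 to 0.17) alone and 0.11 (-0.089 to 0.32) with the inhibitors. LYN differed by 0.11 (-0.011 to 0.23, adjusted p = 0.415 in limma) alone, although the 3 AM80 libraries all lay above the 3 ATRA libraries, and by 0.020 (-0.10 to 0.14) with the inhibitors. The intervals for YES1 were -0.061 to 0.31 and -0.19 to 0.18, and those for FYN were -0.15 to 0.37 and -0.12 to 0.40. SRC differed by -0.051 (-0.23 to 0.13) alone and by 0.22 (0.034 to 0.40) with the inhibitors, the latter at an unadjusted p = 0.0222 and an adjusted p = 0.214 in limma. The SRC libraries of the 2 combinations did not overlap either. How many of all genes separate in this way was not counted, so nothing is read from the separation of LYN or SRC. All 10 intervals exclude a 1.5-fold difference (log2 0.58), and none shows that the retinoids act alike below that size.

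Per kilobase of exon the make-up of the family changed as well as its sum. The summed level of the members was 1078 ± 12.9 normalized counts per kb before treatment, 2387 ± 37.003 after ATRA and 2469.9 ± 34.9 after AM80, and the combinations had 2507 ± 58.02 (with ATRA) and 2596 ± 37.2 (with AM80), each with its SD. FGR made up 2.30% of that sum in Untreated cells, 34.3% with ATRA and 32.4% with AM80, and 16.9% and 17.6% in the combinations. LYN held 65.96%, 48.98%, 51.1%, 63.99% and 62.6% in the same order. The share of LYN was larger, and that of FGR smaller, in the combinations than with the retinoid alone. These shares rest partly on the FGR values that chose it and are a description.

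The order of the levels per kb in Untreated cells was LYN (711 ± 10.1), SRC (171 ± 14.4), YES1 (142 ± 13.2), FYN (28.4 ± 3.33) and FGR (24.8 ± 3.15). SRC and YES1 overlapped there, as did FYN and FGR, whereas the other neighbours did not. With ATRA the order became LYN (1169 ± 58.8), FGR (818 ± 33.7), SRC (237 ± 3.11), YES1 (141 ± 12.9) and FYN (21.6 ± 0.897), and AM80 gave the same order, in both cases with no overlap between neighbours. In the combinations YES1 (254 ± 7.12 and 254 ± 7.61) stood above SRC (194 ± 6.70 and 225 ± 15.5) with no overlap. The overlaps and that last order depend on the length used. With the longest transcript in place of all exons, SRC and YES1 did not overlap in Untreated cells, nor did FYN and FGR. YES1 and SRC then overlapped in ATRA-LSDi-MB3, and SRC was the higher in AM80-LSDi-MB3. FGR was then 36.96% of the sum with ATRA.

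**Figure D3:**
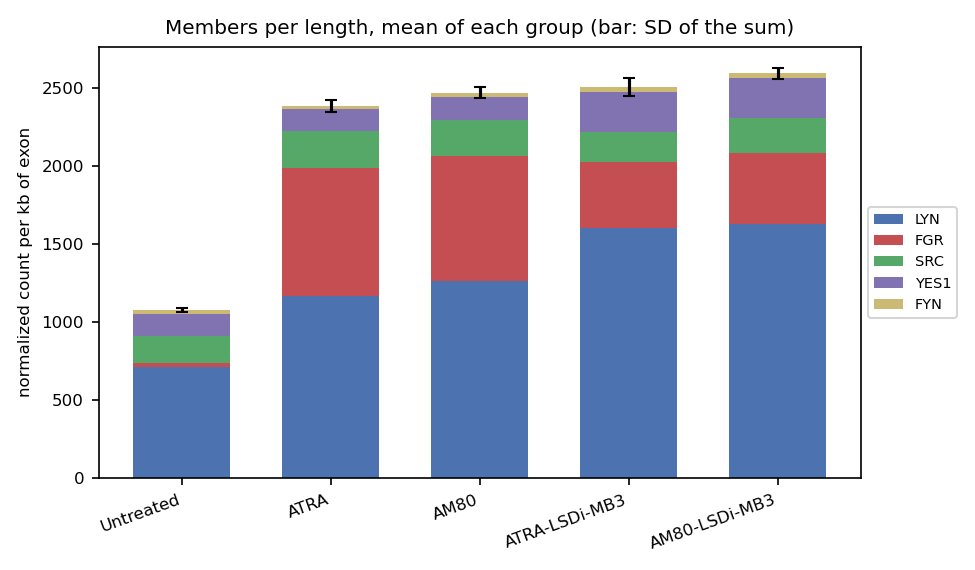
Stacked group means of the 5 expressed members in normalized counts per kb of exon (linear axis from 0), with the SD of the summed level over the libraries of each group. The sum went from 1078 in Untreated cells to between 2387 and 2596 in the 4 treated groups, and the FGR segment was tallest with a retinoid alone.

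Among more distant relatives of the family, PTK6 fell with the inhibitors, with 46.9 normalized counts under ATRA against 28.2 in its combination and 44.02 under AM80 against 24.3, and FRK and SRMS were under the limit on low values.

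Of 19 other cytoplasmic tyrosine kinases tested, from 21 listed (the ABL, FAK, JAK, SYK, TEC, FES and CSK families and their like), 2 rose with ATRA and 0 were called with AM80, where 9.45% and 10.2% of all genes were called, so the count with ATRA is near the background. JAK3, the kinase of the common gamma chain receptors, went from 164 to 259 normalized counts with ATRA (log2 0.67), and TXK, a TEC family kinase, from 13.997 to 28.4 (log2 0.97). With AM80 their log2 differences were 0.36 and 0.42 (adjusted p = 0.122 and 0.261 in limma), not called. Adding the inhibitors to ATRA raised 1 and lowered 4 of them, and adding them to AM80 raised 1 and lowered 1, where 19.5% and 15.7% of all genes were called. BMX, another TEC family kinase, rose from 27.4 to 109.6 and from 30.7 to 98.7 normalized counts. JAK3 fell by 1.02 and by 0.87 on the log2 scale. The list's median log2 difference was -0.041 with ATRA and -0.067 with the inhibitors beside ATRA.

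Of 17 tested negative regulators of the family, which restrain kinase signalling at several steps, 4 rose and 0 fell with each retinoid, where 6.52% (ATRA) and 6.41% (AM80) of all genes were called higher. The median log2 difference was 0.19 with ATRA, beside -0.020 over all genes. SLA, the Src-like adaptor that lacks a kinase domain, went from 1140.05 to 4461 normalized counts with ATRA and 4593 with AM80, log2 differences of 1.97 and 2.01. SOCS1, a suppressor of cytokine signalling, rose by 1.72 and 1.76 from a low level (14.2 normalized counts in Untreated cells), and UBASH3B, a phosphatase that acts on SYK family kinases, by 1.21 and 1.38. With the inhibitors 6 fell beside ATRA and 3 beside AM80, where 11.4% and 8.9% of all genes were called lower, and 0 rose. SOCS3 fell from 51.1 to 15.5 and from 49.9 to 19.9 normalized counts, and DOK3, an inhibitory adaptor, from 3345 to 1927 and from 2963 to 1787. SLA2 fell from 24.2 to 11.5 beside ATRA, and beside AM80 its difference was -0.70 (adjusted p = 0.118 in limma).

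Among the 6 tyrosine phosphatases that can activate Src family kinases, several of them by removing the C-terminal phosphate, 1 rose and 1 fell with each retinoid, where 9.45% and 10.2% of all genes were called. PTPRJ rose from 1318 to 2661 with ATRA and 2514 with AM80. PTPRE fell from 1514 to 929 and 862 normalized counts and stood at 1474 and 1409 in the combinations, a rise of 0.66 and 0.71 on the log2 scale over the retinoid alone. PTPRE was the only one of the 6 called when the inhibitors were added to ATRA or AM80.

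The kinases phosphorylate ITAM motifs to recruit SYK. Of 14 tested myeloid receptors and adaptors of this pathway, 3 rose and 1 fell with ATRA, and 3 rose and 0 fell with AM80. Of all genes 6.52% and 6.41% were called higher there. CD300LB rose from 34.6 to 209.6 and 186 normalized counts, and TREM1, which amplifies inflammatory responses of myeloid cells, from 125 to 231 and 256. LILRA5 stood at 2.52 in Untreated cells, within what 3 reads give, and at 64.8 and 72.1 with the retinoids. Adding the inhibitors raised TREM1 by 1.16 and 1.11 and LILRA5 by 1.31 and 1.41 on the log2 scale, and TREM2, a lipid-sensing receptor, fell from 166 to 63.7 and from 196 to 75.5 normalized counts. In all 4 rose and 4 fell of 14 when ATRA was the partner, and 2 rose and 2 fell when it was AM80, where 19.5% and 15.7% of all genes were called.

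Of 15 tested receptors with ITIM motifs, through which LYN and its relatives recruit inhibitory phosphatases, 6 rose and 1 fell with each retinoid, where 6.52% (ATRA) and 6.41% (AM80) of all genes were called higher. CEACAM1 went from 9.57 to 152 and 139.6 normalized counts, CD300A from 81.98 to 333 and 324, and LILRB2 from 21.1 to 78.8 and 75.99. With the inhibitors 3 rose and 1 fell beside ATRA, and 2 rose and 2 fell beside AM80, where 8.15% and 6.81% of all genes were called higher and 11.4% and 8.9% lower. CD300A fell by 0.70 and 0.59 on the log2 scale. FCGR2B, the inhibitory IgG receptor, rose by 0.66 and 0.66, and CD300LF by 0.59 and 0.62.

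Downstream of the kinases, 3 of 30 tested substrates and effectors rose and 0 fell with each retinoid, near the background of 9.45% (ATRA) and 10.2% (AM80) of all genes called. They were PXN, the focal adhesion adaptor paxillin (119 to 691 and 614 normalized counts), NEDD9, a docking protein of the same sites (772 to 1534 and 1481), and LCP2, the adaptor SLP-76 (2691 to 4827 and 4771). With the inhibitors 2 rose and 4 fell beside ATRA, and 4 rose and 2 fell beside AM80, 6 of 30 in each case, where 19.5% and 15.7% of all genes were called. GAB2, a docking protein that binds PI3-kinase, rose by 0.85 and 1.05 and STAT5A by 0.97 and 0.91, whereas PIK3CD, a PI3-kinase catalytic subunit of leukocytes, fell by 0.87 and 0.75. Of 9 genes for lipid anchoring, folding and trafficking of the kinases, 0 were called with a retinoid and 2 rose with the inhibitors, where 8.15% (ATRA) and 6.81% (AM80) of all genes were called higher. These were the chaperones HSP90AA1, from 40138 to 118009.8 and from 53809.6 to 144864 normalized counts, and HSP90AB1, from 36987 to 63145 and from 38258 to 72298.

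**Figure D4:**
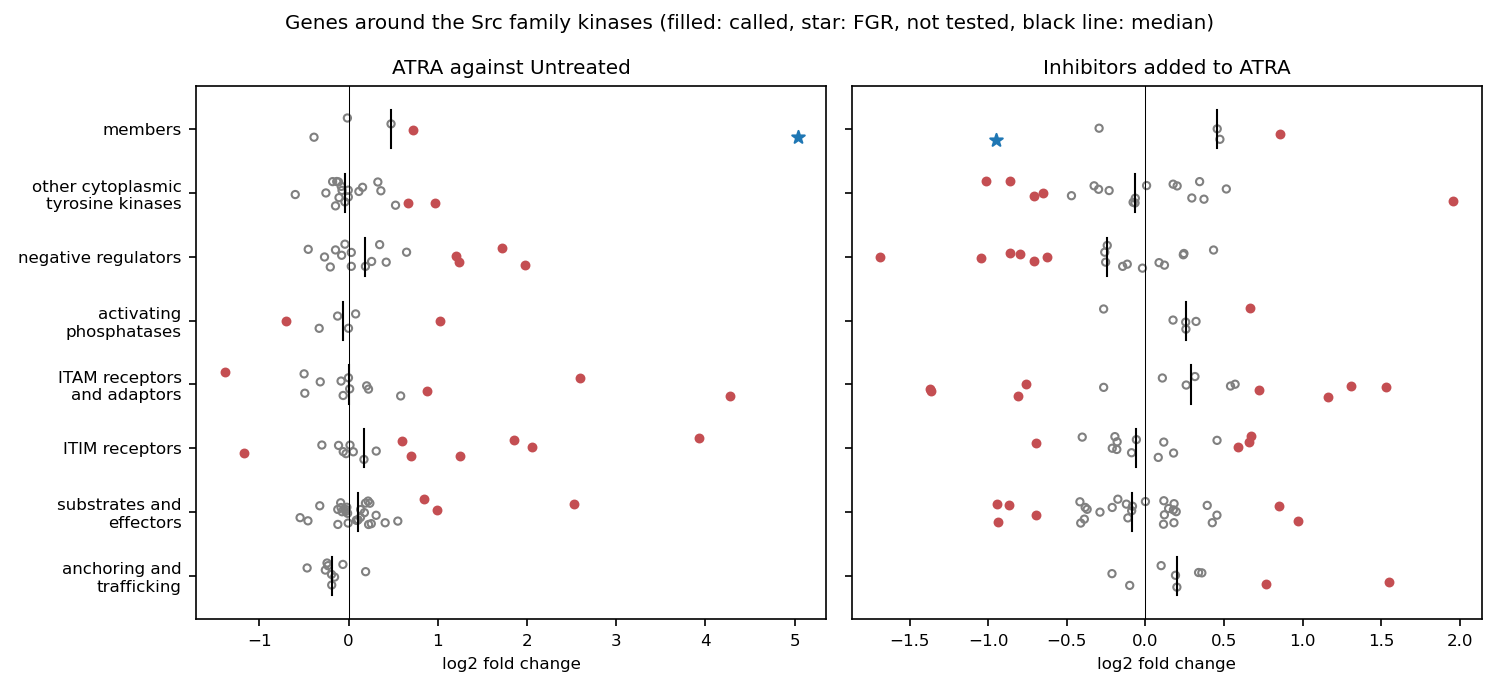
Log2 fold change of every tested gene of the members and 7 related lists, for ATRA against Untreated (left) and for the inhibitors added to ATRA (right), with called genes filled, the median of each list as a black line and FGR as a star because it is a description without a test. FGR has the highest value on the left, at 5.03, and the activating and inhibitory receptor lists hold genes on both sides on the right.

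Over the 16 libraries the members fell into different patterns. On the log2(normalized count + 1) scale Pearson's r was 0.825 between FGR and LYN and between FGR and SRC, 0.777 between LYN and YES1, 0.632 between FYN and YES1, 0.301 between FGR and YES1, −0.286 between FGR and FYN and 0.009 between YES1 and SRC. The libraries share their treatment groups, so these coefficients describe the group pattern and are given without a p. Among 14642 other genes the profiles nearest to FGR were those of RHBDL3 (r = 0.998), CYP26A1 (0.997), SNN (0.996), ENSG00000288927 (0.996) and TGM2 (0.996). CYP26A1, the enzyme that degrades retinoic acid, was at 0 in Untreated cells, 118 and 96.8 with ATRA and AM80, and 52.04 and 59.6 normalized counts in the combinations. TGM2, tissue transglutaminase, was at 84.1, 10910.03, 9730.3, 6357 and 6414 in the same order of groups. Both were named for a profile close to that of FGR, so their shared pattern, highest with a retinoid alone, follows from that choice. None of these 5 genes stayed among the 5 nearest by Spearman's rho, or by Pearson's r over the 12 treated libraries.

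The other members had other neighbours. ACSL1 (0.993), ADIPOR2 (0.992) and STK38L (0.992) were nearest to LYN, and CANX (0.988) and BNIP2 (0.987) were among the nearest to YES1. VAT1 (0.962), TRIM11 (0.952) and MCRIP2 (0.951) were nearest to SRC, and MAPKAP1 (0.924), CALR (0.915) and PHF23 (0.908) to FYN. By Spearman's rho 2 of the 3 nearest genes stayed for FYN and 0 for LYN, YES1 and SRC, and by Pearson's r over the treated libraries 1 stayed for YES1 and 0 for LYN, FYN and SRC. ACSL1, an acyl-CoA synthetase named for its likeness to LYN, went from 4044 to 7427 and 7293 with the retinoids. In the combinations it stood at 10427 and 10662. CANX, the chaperone calnexin of the endoplasmic reticulum, had 21806, 21706 and 22762 normalized counts without the inhibitors and 31829.7 and 31650.4 with them.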

How the data were processed

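Polyadenylated RNA of OCI-AML3 cells was sequenced by the authors and processed on Galaxy. FastQC, cutadapt, STAR, featureCounts and DESeq2 are named in the submitters' processing notes, and genome build, annotation release and strand setting are not given in the sources used here. The treatment of reads that match more than one place, which could matter for related kinases, is not given either. The labels and the methods name different RNA and library kits. The deposited signal values are gene counts that the authors divided by DESeq2 size factors, written "normalized counts" here. Whole reads were recovered from them for 100% of values (relative tolerance 1e-06), 11963898 to 33789718 reads per library, and were used only for depth and for edgeR and DESeq2 as alternatives. No column was left unused.

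Groups came from the labels. limma (version 3.58.1, trend, log2(normalized count + 1)) was fitted once to all 16 libraries for 14643 genes (those averaging 10 or more normalized counts), in 9 comparisons, with Benjamini-Hochberg adjustment within each. A gene was called at adjusted p under 0.05 and at least 1.5-fold, and fold changes of low genes are understated by the pseudocount of 1. The fit was also run on simulated data in which all replicates were drawn alike. That run held no libraries that differ as Untreated replicate 4 and AM80 replicate 2 do, so it does not cover them. All 62700 identifiers matched the symbol table, and 58207 were in GENCODE release 29, which gave coordinates and lengths. Members, gene lists and tests were chosen with earlier results of these data known. For each list up to 3 called genes with the largest mean log2 change were named, and for FGR 5 and for each other tested member 3 genes with the highest Pearson r. Results for some genes are not reported here. Alternatives were other pseudocounts, filters, scalings, tools, thresholds and lengths, a replicate block, a fit of the compared groups alone, and each library left out in turn.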

Additional observations from a re-analysis of the deposited data

How the results depend on the processing

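The 10 differences of members past the limits of a call (LYN and YES1 against Untreated, YES1 and, as a description, FGR with the inhibitors added) kept their direction and stayed past these limits under each of 26 alternatives that kept the thresholds of a call, 260 of 260 values. The FGR values among them rest on the libraries that brought it into the set and are not a test. Many of these alternatives could not move a log2 difference. Leaving out a library outside the groups compared, another filter on low values, or a fit of the compared groups alone changes only its p. The tally is therefore not a count of independent checks. The counts moved most where few genes differ. For AM80 against ATRA, 7 genes were called, and the count was 0 without a filter on low values, 3 with quantile normalization, 4 scaled to total reads, 16 in edgeR, 17 in DESeq2, 0 when the fit held those groups alone, 35 without a fold limit and 0 at adjusted p under 0.01 and 2-fold, and 0 to 88 when one library was left out. The count was 88 without AM80 replicate 3, 37 without Untreated replicate 4, 28 without ATRA replicate 3 and 0 without AM80 replicate 2. For AM80-LSDi-MB3 against ATRA-LSDi-MB3 none was called, and the count was 16 in DESeq2, 127 when the fit held these groups alone and 0 to 86 when one library was left out, the highest without Untreated replicate 4. The interaction gave none, 5 in DESeq2 and 0 to 26 when one library was left out, the highest without AM80 replicate 3. No member was called in any of these. Against Untreated, a minimum mean of 50 left 921 genes called with ATRA, as fewer genes were tested.

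Thresholds moved the counts by construction. Without a fold limit 3609 genes (4 members) were called with ATRA, 4211 with AM80, 8819 with ATRA-LSDi-MB3 and 8004 with AM80-LSDi-MB3 against Untreated, and 7226 (5 members) and 5778 (4 members) with the inhibitors beside ATRA and AM80. At adjusted p under 0.01 and 2-fold these were 623 (1 member), 625 (1 member), 1573, 1485, 747 (0 members) and 690 (0 members).

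With the replicate number as a block, 34 genes were called for AM80 against ATRA and 84 between the combinations. That fit in effect drops Untreated replicate 4, which has no partner, and the block changed no call of a member. By adjusted p alone, FYN with ATRA no longer passed under the block (0.0554) and SRC in ATRA-LSDi-MB3 against Untreated passed (0.0133, against 0.0645 without the block). Same-numbered libraries (r −0.112 to 0.187) did not deviate together more than different-numbered ones (r -0.229 to 0.230). Pairing was thus not seen, but these values cannot exclude it.

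Some uncalled differences changed sign. LYN between the combinations was -0.036 with quantile normalization and -0.017 scaled to total reads, FYN in ATRA-LSDi-MB3 against Untreated was -0.062 scaled to total reads, and the FYN interaction was -0.00094 in edgeR. With one library left out, YES1 with ATRA ranged from -0.073 to 0.059, FYN in ATRA-LSDi-MB3 against Untreated from -0.028 to 0.21, FGR in AM80 against ATRA from -0.082 to 0.029, SRC in AM80 against ATRA from -0.11 to 0.060, SRC with the inhibitors beside AM80 from -0.14 to 0.032, LYN and YES1 between the combinations from -0.0021 to 0.038 and -0.019 to 0.023, and the FYN interaction from -0.10 to 0.14. Why these moved was not tested. The 5 expressed members had at least 58 reads in every library and FYN had 145 to 301, whereas LCK and BLK had no value at this depth.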
